A study of Mus musculus with 4 samples.

Results

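Neurotransmitter receptor subunits were examined in Neuro2A cells, a mouse neuroblastoma line, after induction of the transcription factor Prox1 or of green fluorescent protein (GFP). The genes were the protein-coding entries of the deposited table whose symbols name subunits of receptors for GABA, glutamate, glycine, acetylcholine, serotonin, dopamine, or adrenaline and noradrenaline. There were 101 of them among 49548 genes in the table, of which 21960 were protein-coding. The data were 4 libraries, 2 from a stable Prox1-Tet-On line and 2 from a stable GFP-Tet-On line. Both lines were under selection with G418 and hygromycin, and in both the transgene was turned on with doxycycline at 1 µg/mL. Each transgene sat in a line of its own, so an effect of Prox1 and a difference between the lines cannot be told apart. Nothing in the labels says whether each line was 1 clone, how long induction lasted or whether replicates were separate cultures. P-values therefore set the difference between the groups against the variation within these libraries only, and that variation may be technical.

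Transmitter receptors are of 2 kinds. Ligand-gated channels are assembled from several subunits around a pore and open within milliseconds of binding, whereas G protein-coupled receptors act through G proteins on enzymes and other channels. In sympathetic neurons, the lineage from which neuroblastoma arises, nicotinic acetylcholine receptors built from alpha3 and beta4 subunits carry fast transmission in the ganglion. Many channels form only when particular subunits are made together, so the subunits are described here by transmitter and beside their usual partners.

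The 3′ messenger RNA libraries summed to between 6798014 and 7683100 normalised counts each, from an estimated 5910000 to 9610000 reads, and Prox1 itself was at 1304 and 2505 in the Prox1 libraries against 2 and 3 in the GFP libraries. Of 14 markers of sympathetic neuroblastoma, 13 were above the count minimum and 1 was at 0 in all 4 libraries. The summed level of the list was 9913 and 8761 in Prox1 against 17237 and 16287 in GFP libraries. Of the 13, 9 were lower and 1 higher in Prox1 cells at a limma adjusted p under 0.05. Over all genes tested, 8.41% were lower and 7.57% higher. Markers of other cell types were scarce. Summed levels over the Schwann cell list were 39 and 58 in Prox1 against 13 and 30 in GFP libraries, with Sox10 and Foxd3 at 0. The fibroblast list summed to 38 and 5 in Prox1 against 2 and 12 in GFP libraries, and the endothelial list to 4 and 2 against 16 in each. The epithelial list summed to 7 and 11 against 0 and 1. For the immune list the sums were 2 in each against 5 and 1, and for the muscle list 0 in each against 4 and 0. Ptprc, Cdh5, Myod1 and Myog were at 0 in all 4 libraries. The part of these levels in the results below was not tested.

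Most receptor genes had few or no counts. Of the 101 genes, 43 (42.6%) were at 0 in all 4 libraries, as were 31.1% of all protein-coding genes. A value of 0 allows up to 3 reads per library, which equal 2.40 to 3.62 normalised counts, and this limit covers counting error only. A further 45 genes had counts but averaged under 10 over the 4 libraries, the minimum for testing, and 13 genes (12.9%) reached it, against 49.7% of protein-coding genes. The 13 were 3 GABA receptor genes (among them Gabrr1 and Gabbr1), 5 glutamate receptor genes (among them Gria2, Grik5, Grin1 and Grm5), 4 acetylcholine receptor genes (Chrna3, Chrnb2, Chrm2, Chrm3) and 1 serotonin receptor gene (Htr3a). No receptor gene for glycine, dopamine, or adrenaline and noradrenaline reached it.

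**Figure D1:**
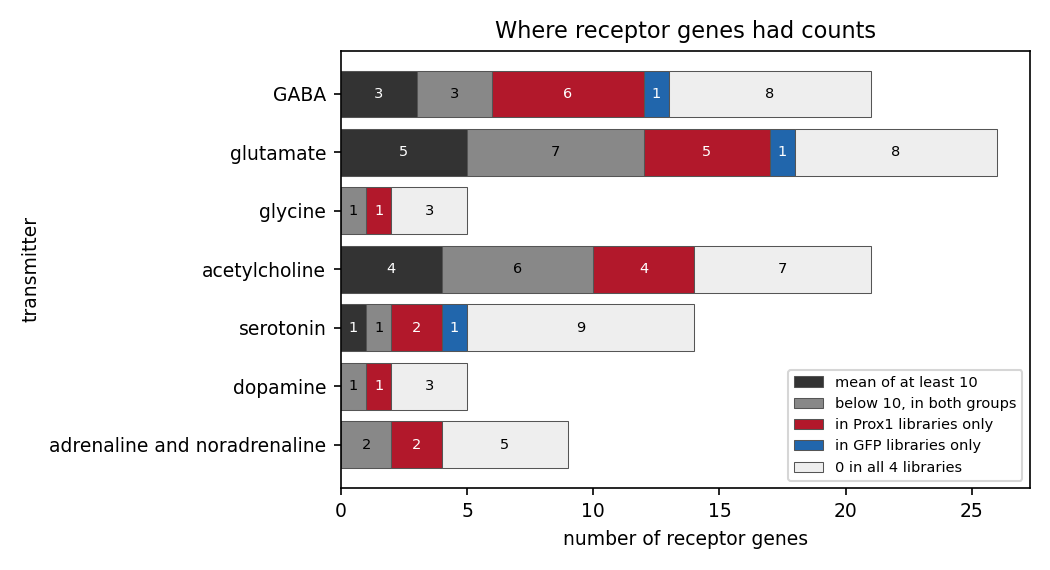
Number of receptor genes per transmitter (horizontal axis), split by a mean of at least 10 normalised counts, counts in both groups, counts in one group only, or 0 in all 4 libraries. The GABA bar holds 3 genes at or above the minimum and 8 at 0, and no glycine, dopamine or adrenaline receptor gene reached the minimum.

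In Prox1 cells 2 receptor genes rose and 4 fell, at an adjusted p under 0.05 by limma with Benjamini-Hochberg adjustment over all 13290 genes tested. The 2 that rose were Gabrr1 and the muscarinic receptor Chrm2. They averaged 3.0 and 6.5 in GFP libraries, so they reached the count minimum through their Prox1 libraries. Among the 4 that fell were Grik5, Gabbr1 and Chrna3. In such bulk RNA, fewer cells expressing a gene and less RNA per cell cannot be told apart. Over all genes tested 7.57% rose and 8.41% fell. The libraries of the 2 groups did not overlap in 9 of the 13 genes, against 58.8% of all genes tested. The median log2 fold change was -0.66 over the 13 and 0.00 over all genes tested. The authors' deposited table gives a DESeq adjusted p for 12 of the receptor genes, and it was under 0.05 for 3 of them, among these Gabrr1 and Chrm2, both higher. Of the 11933 genes valued in the authors' deposited table, a share of 4.62% was under 0.05, with 1.91% higher and 2.71% lower in Prox1 cells. These calls need all 4 libraries and the count minimum. Dropping any single library left limma with 0 genes called at the adjusted threshold (2365 to 2981 had an unadjusted p under 0.05), and the 6 receptor genes had adjusted p from 0.142 to 0.313 with the sign they had with all libraries, which could not change since their groups did not overlap. Without the minimum limma again called 0 genes, and 5032 had an unadjusted p under 0.05.

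**Figure D2:**
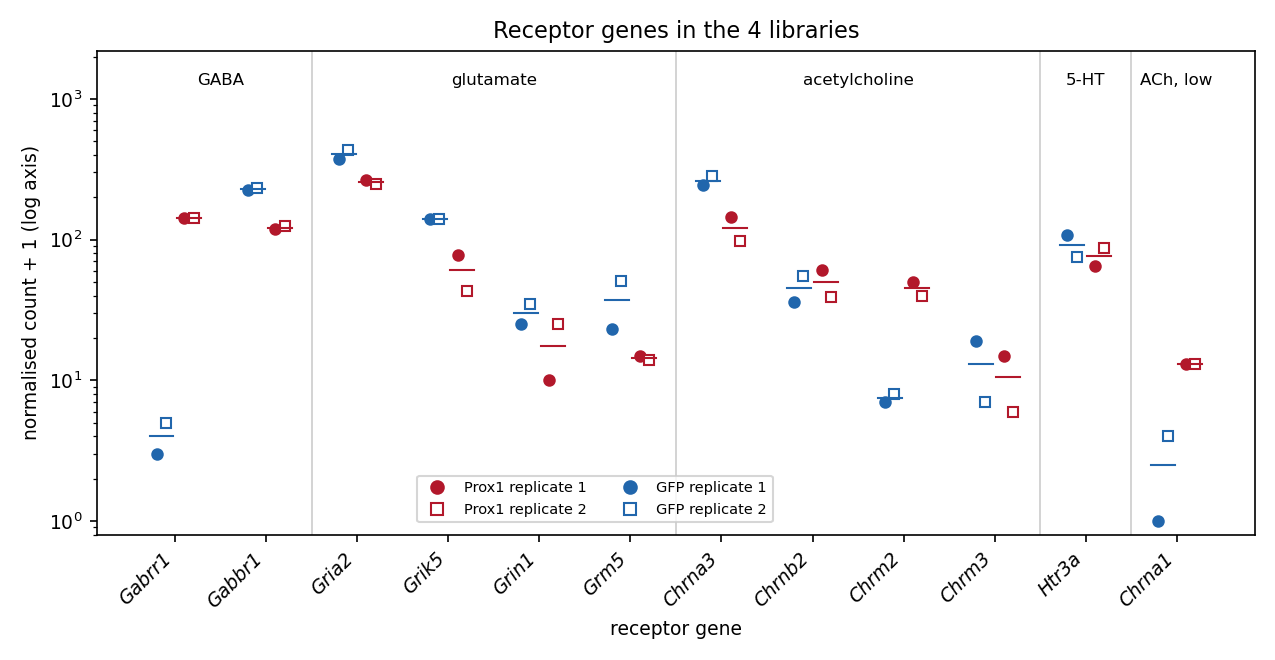
Normalised count plus 1 (log axis) of 11 of the receptor genes tested and of Chrna1 in each library; filled circles are replicate 1, open squares replicate 2, and bars the group means. Gabrr1 stood at 142 each time in Prox1 cells and at 2 and 4 in GFP cells, and Grik5 and Chrna3 show the opposite order.

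Among GABA receptor genes Gabrr1 rose and Gabbr1 fell. Gabrr1 (ENSMUSG00000028280, mm10 chromosome 4, positions 33132521 to 33163588, plus strand) encodes the rho subunit that forms chloride channels without alpha, beta or gamma subunits and is best known from retinal bipolar cells. It had 142 normalised counts in each Prox1 library, against 2 and 4 with GFP. Both Prox1 libraries were far above both GFP libraries, with means of 142.0 ± 0.0 and 3.0 ± 1.4 (SD, n = 2) and a ratio of 47.3. The difference in log2(normalised count + 1) came to 5.21 ± 0.47 (SE; limma adjusted p 5.7e-05). The authors' deposited table lists a DESeq adjusted p of 4.37e-11. The other rho subunits were low: Gabrr2 was at 0 and 3 in Prox1 and at 0 and 1 in GFP libraries, and Gabrr3 was at 0 throughout.

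Gabrr2 lies next to Gabrr1 on the same strand, so the genes around them were read as well. Of 10 other protein-coding genes that start within 500 kb of the start of Gabrr1, 7 were tested and 0 passed the limma adjusted threshold. At an unadjusted limma p under 0.05, 2 had a positive difference (Lyrm2 and Ankrd6) and 1 a negative one (Pnrc1). Over all genes tested, 16.0% passed the adjusted threshold and 31.7% had an unadjusted limma p under 0.05. Log2 fold changes of the 7 tested neighbours ran from -0.85 (Pnrc1) to 0.88 (Lyrm2). The closest tested neighbour upstream, Ube2j1, which encodes a ubiquitin-conjugating enzyme, was at 381 and 399 in Prox1 and 381 and 526 in GFP libraries. Among the untested neighbours, Pm20d2 was at 0 and 1 in Prox1 against 7 and 8 in GFP libraries, a ratio of summed counts of 15 in the direction of GFP with an exact 95% counting interval of 2.31 to 631. Srsf12 was at 0 in all libraries.

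**Figure D3:**
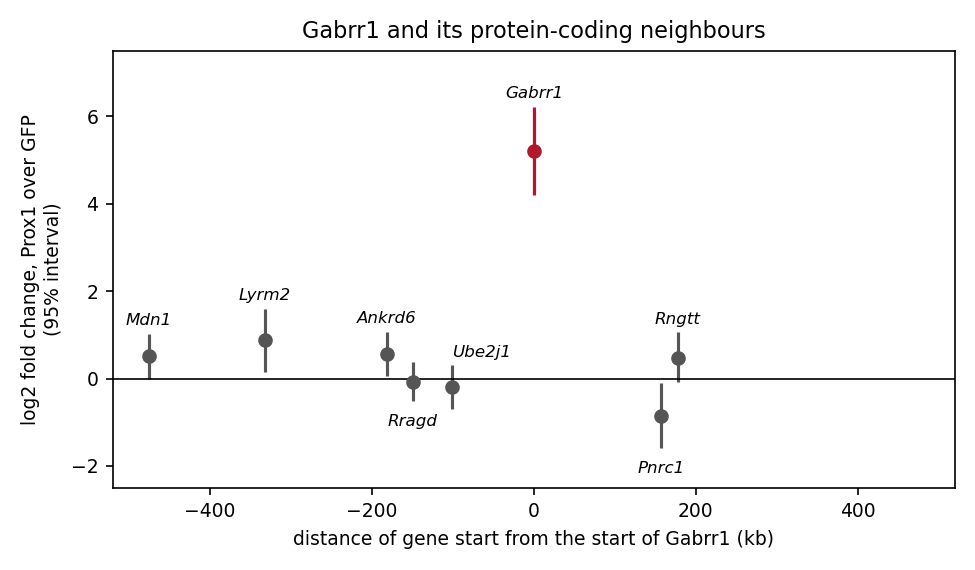
Log2 fold change of Prox1 over GFP with its 95% interval (vertical axis) for Gabrr1 and the 7 tested protein-coding genes that start within 500 kb, by distance of their start from that of Gabrr1 in kb. Gabrr1 is at 5.21, and the neighbours lie between -0.85 and 0.88.

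Several subunits of GABA-gated chloride channels were at or near 0: Gabra5 was at 0 throughout, Gabra2 had 1 count and Gabra4 had 3 over the 4 libraries, and Gabrd, a subunit of channels outside synapses, was at 3 and 4 in Prox1 and 0 and 2 in GFP libraries. Gabbr1 (ENSMUSG00000024462, mm10 chromosome 17, positions 37045966 to 37075067, plus strand) encodes the GABA-binding subunit of the metabotropic GABA-B receptor. It was at 117 and 123 in Prox1 and at 224 and 233 in GFP libraries, without overlap, and fell 1.90-fold (log2 difference -0.92 ± 0.24, SE; limma adjusted p 0.0218). The authors' deposited table lists a DESeq adjusted p of 0.241, and without the variance trend its limma adjusted p was 0.0674. Gabbr2, the partner that carries Gabbr1 to the surface and couples it to G proteins, had 1 count in 1 Prox1 library and 0 in the other three libraries.

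Of the 5 tested glutamate receptor genes 2 fell in Prox1 cells, where 8.41% of all genes tested fell. The log2 fold changes of the 5 were negative, with a median of -1.24, and 50.1% of all genes tested had a negative one. Grm5, a metabotropic receptor that signals through Gq and phospholipase C, was at 14 and 13 in Prox1 and at 22 and 50 in GFP libraries; the GFP libraries differed from each other and it did not pass (log2 fold change -1.24, 95% interval -2.34 to -0.14; limma adjusted p 0.113). Without GFP replicate 2 its log2 fold change was -0.67, and without GFP replicate 1 it was -1.82. Among the metabotropic receptor genes below the minimum, Grm4 was at 2 and 7 in Prox1 and 0 in both GFP libraries, and Grm7 had 4 counts in 1 Prox1 library.

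Of the glutamate-gated channel subunits, Grik5 passed the threshold. Grik5 (ENSMUSG00000003378, mm10 chromosome 7, positions 25009849 to 25072346, minus strand) encodes a kainate receptor subunit that needs a partner from Grik1 to Grik3 to form a channel. It was at 77 and 42 in Prox1 and at 139 and 138 in GFP libraries, and fell 2.33-fold (log2 difference -1.27 ± 0.33, SE; limma adjusted p 0.0206). The GFP libraries were nearly equal, and both Prox1 libraries lay below them, apart from each other. The authors' deposited table lists a DESeq adjusted p of 0.168, and without the variance trend the limma adjusted p was 0.0755. Of its partners, Grik1 and Grik2 were at 0 throughout and Grik3 was at 7 and 15 in Prox1 and 8 and 5 in GFP libraries.

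Gria2, the AMPA receptor subunit whose edited form keeps the channel closed to calcium, was at 265 and 247 in Prox1 and at 376 and 433 in GFP libraries. The groups did not overlap, but the difference missed the threshold (log2 fold change -0.66, 95% interval -1.13 to -0.18; limma adjusted p 0.0608). Gria1 and Gria4 were at 0 and Gria3 had 3 counts in all. Grin1, the subunit that every NMDA receptor contains, was at 9 and 24 in Prox1 and at 24 and 34 in GFP libraries, meeting at 24, and did not pass (limma adjusted p 0.273). The NMDA receptor partners were low: Grin2b was at 5 and 4 in Prox1 and 1 and 2 in GFP libraries, and Grin2a, Grin2c and Grin2d had 2 to 3 counts each in all.

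**Figure D4:**
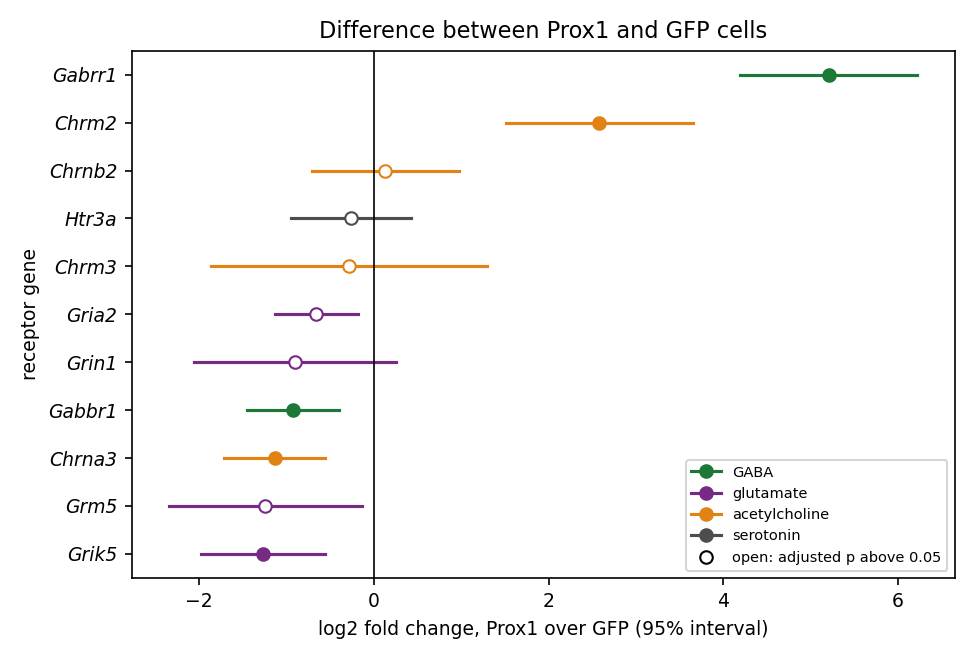
Log2 fold change of Prox1 over GFP with its 95% interval for 11 of the receptor genes tested, coloured by transmitter; filled points passed the limma adjusted threshold. Gabrr1 at 5.21 and Chrm2 at 2.58 lie to the right, and the 4 glutamate receptor genes shown lie between -1.27 and -0.66.

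Acetylcholine receptor genes moved in both directions. Chrna3 (ENSMUSG00000032303, mm10 chromosome 9, positions 55010111 to 55026562, minus strand), the alpha3 subunit of the ganglionic nicotinic receptor, was at 144 and 97 in Prox1 and at 242 and 281 in GFP libraries. It fell 2.17-fold without overlap (log2 difference -1.13 ± 0.27, SE; limma adjusted p 0.013). The authors' deposited table lists a DESeq adjusted p of 0.11, and without the variance trend the limma adjusted p was 0.069. Chrna3 is clustered with Chrna5 and Chrnb4. The accessory subunit Chrna5 was at 8 and 15 in Prox1 and 2 and 9 in GFP libraries, and the beta4 subunit Chrnb4 at 4 and 7 against 1 and 4, both with overlapping groups and below the count minimum. Chrna5 and Chrna3 point towards each other, and their annotated positions do not overlap, with the ends 2331 bases apart. The labels do not say whether counting used strand, and any effect of this on their counts was not tested.

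Chrnb2, the beta2 subunit that pairs with alpha4 in the brain and can pair with alpha3, was at 60 and 38 in Prox1 and 35 and 54 in GFP libraries (log2 fold change 0.13, 95% interval -0.71 to 0.97; limma adjusted p 0.845). Its sign turned with 1 library left out, and its interval holds both a fall and a rise. It overlaps Adar, which had 185 to 244 counts, on the opposite strand. Chrna4 and Chrna7, known from the brain, were each between 0 and 12 in every library, with overlapping groups. The muscle-type subunits were below the minimum and not tested. Chrna1, the alpha subunit of the muscle receptor, had 12 normalised counts in each Prox1 library against 0 and 3 with GFP. The ratio of summed counts was 8, with an exact 95% counting interval of 2.43 to 41.5. Chrna1 was named for having at least 10 counts in 1 group and 3 or fewer in the other. The interval was therefore bound to lie away from equal counts, and it is no test of a difference. Chrnb1 had 2 in each Prox1 library and 0 in each GFP library, and the fetal subunit Chrng at 1 and 5 against 0 and 0. Chrnd and Chrne were at 0 throughout, as were the muscle regulators Myod1 and Myog.

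The muscarinic receptor Chrm2 (ENSMUSG00000045613, mm10 chromosome 6, positions 36388084 to 36528414, plus strand) signals through inhibitory G proteins and is best known from the heart. It was at 49 and 39 in Prox1 and at 6 and 7 in GFP libraries. Both Prox1 libraries were well above both GFP libraries, with means of 44.0 ± 7.1 and 6.5 ± 0.7 (SD, n = 2), a ratio of 6.77 and a difference of 2.58 ± 0.50 (SE) on the log2 scale (limma adjusted p 0.0047). The authors' deposited table lists a DESeq adjusted p of 0.0414. A non-coding gene on the opposite strand, 9330158H04Rik, overlaps Chrm2 by 2108 bases and was at 17 and 5 in Prox1 and 2 and 1 in GFP libraries. Reads from the shared stretch cannot be told apart without strand. Chrm3, which signals through Gq, was at 14 and 5 against 18 and 6, overlapping widely (limma adjusted p 0.824). Chrm4 and Chrm5 were at 0 and Chrm1 had 1 count.

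Serotonin was represented by Htr3a, which forms a serotonin-gated cation channel by itself. It was at 64 and 86 in Prox1 and at 107 and 74 in GFP libraries, with overlapping groups (log2 fold change -0.26, 95% interval -0.95 to 0.43; limma adjusted p 0.618). Its partner Htr3b had 2 counts in 1 GFP library. The 12 serotonin receptor genes coupled to G proteins had at most 2 counts in any library, and 9 of them were at 0 in all 4. Receptor genes for the catecholamines, which sympathetic cells themselves make, were all below the minimum. Of the 9 adrenaline and noradrenaline receptor genes 5 were at 0 in all libraries. Adra2a was at 5 and 0 in Prox1 and 1 and 2 in GFP libraries, Adra2b at 2 and 0 against 1 and 7, and Adrb3 at 1 and 4 against 0 and 0. Among dopamine receptor genes Drd1 was at 0 and 1 against 0 and 2, Drd4 at 0 and 2 against 0 and 0, and the other three were at 0. The glycine receptor genes had 4 counts in all, 3 in Glra2 and 1 in Glrb. All of these genes were under the minimum and were not tested.

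Receptor genes below the minimum were counted more often in Prox1 libraries. Between 28 and 30 of these 88 genes were above 0 in the Prox1 libraries, against 14 and 20 in the GFP libraries. Of all protein-coding genes, 13466 and 13533 were above 0 in Prox1 and 12854 and 13330 in GFP libraries. Of the 58 receptor genes above 0 in any library, 21 (36.2%) had counts in Prox1 libraries only and 3 (5.17%) in GFP libraries only. Among all protein-coding genes above 0 in any library these shares were 8.32% and 5.16%. Among the 45 below the minimum these shares were 46.7% and 6.67%, against 29.5% and 18.3% of the 4222 protein-coding genes below it with counts. The 3 seen only in GFP libraries were Htr3b, Grin2c and Gabrb1, with 1 to 2 counts each, chosen after their values were seen. Those seen only in Prox1 libraries had between 1 and 9 counts in all, with Grm4, Chrng and Adrb3 the highest, named after their values were seen. The summed counts of the 88 genes overlapped between groups, at 81 and 115 in Prox1 and 31 and 83 in GFP libraries. The GFP libraries were the shallowest and the deepest of the 4, and the part of depth in these shares was not tested.

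The proteins that assemble, cluster and accompany receptors showed calls in both directions. Of 24 tested genes of that list 3 rose and 3 fell, where 7.57% of all genes tested rose and 8.41% fell, with a median log2 fold change of -0.17. Plcl1, which binds GABA receptor trafficking proteins, was at 44 and 58 in Prox1 and 5 and 6 in GFP libraries, a ratio of 9.27 (log2 difference 2.99 ± 0.50, SE; limma adjusted p 0.00225). Nsf, an ATPase of membrane fusion that also binds AMPA receptors, was at 704 and 640 against 332 and 248 (limma adjusted p 0.00375). Dlg4, the scaffold of excitatory synapses known as PSD-95, fell 3.10-fold, from 516 and 629 to 132 and 237 (limma adjusted p 0.00212). Cacng3, an auxiliary subunit of AMPA receptors, fell from 318 and 249 to 80 and 139 (limma adjusted p 0.00717).

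Genes that make, load, take up or degrade transmitters, without those specific to catecholamines, fell in 5 of 15 tested cases and rose in 1, with a median log2 fold change of -0.28. Over all genes tested 8.41% fell and 7.57% rose. The list holds Ddc, an enzyme of both serotonin and dopamine synthesis, which did not pass (93 and 66 in Prox1 against 40 and 73 in GFP libraries; limma adjusted p 0.35). The enzymes that begin serotonin synthesis went opposite ways. Tph1 fell 13.6-fold, from 95 and 82 in GFP to 5 and 8 in Prox1 libraries, with a log2 difference of -3.60 ± 0.45 (SE; limma adjusted p 0.000409). Tph2 rose 2.41-fold, from 57 and 45 to 143 and 103 (log2 difference 1.24 ± 0.31, SE; limma adjusted p 0.0178). The glycine-cleaving enzyme gene Gldc fell 9.2-fold, from 28 and 18 to 2 and 3 (limma adjusted p 0.0159), and reached the count minimum through its GFP libraries. The authors' deposited table lists DESeq adjusted p values of 0.136 for Tph2 and 0.191 for Gldc, both above the threshold. Some of the called genes of this list that are not named here were also above it.

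Downstream of metabotropic receptors, 9 of 38 tested G protein, adenylate cyclase, phospholipase, receptor kinase, arrestin and RGS genes fell and 1 rose, with a median log2 fold change of -0.41. The shares over all genes tested were 8.41% and 7.57%. Gng3, a gamma subunit typical of neurons, fell from 250 and 330 to 45 and 108 (limma adjusted p 0.0031), and Adcy3, an adenylate cyclase, from 47 and 54 to 20 and 12 (limma adjusted p 0.0224). Plcb1, a phospholipase that Gq activates, rose from 1 and 5 to 15 and 21, a ratio of 6 and a log2 difference of 2.44 ± 0.77 (SE; limma adjusted p 0.0471). Its means were 18.0 in Prox1 and 3.0 in GFP libraries, so it reached the count minimum through its Prox1 libraries. The authors' deposited table lists DESeq adjusted p values of 0.198 for Adcy3 and 0.477 for Plcb1, both above the threshold. Some of the genes that limma called in this list and that are not named here were above it too.

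Of 7 tested receptors for ATP, adenosine, histamine and cannabinoids 2 rose and 3 fell (16.0% of all genes tested passed in either direction), with a median log2 fold change of -0.05. P2rx3, an ATP-gated channel of sensory neurons, was at 74 and 114 in Prox1 and 7 and 14 in GFP libraries, a ratio of 8.95 (log2 difference 3.08 ± 0.45, SE; limma adjusted p 0.00107). Hrh3, a histamine receptor that inhibits release, was at 341 and 247 against 72 and 58 (limma adjusted p 0.000458). P2ry6, a receptor for UDP, was at 0 and 2 in Prox1 and 53 and 25 in GFP libraries, a ratio of summed counts of 39 in the direction of GFP with an exact 95% counting interval of 10.4 to 328. Adora2a, an adenosine receptor, fell 3.07-fold, from 440 and 456 to 118 and 174 (limma adjusted p 0.00135). The remaining called gene of this list, not named here, had a DESeq adjusted p above 0.05 in the authors' deposited table.

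**Figure D5:**
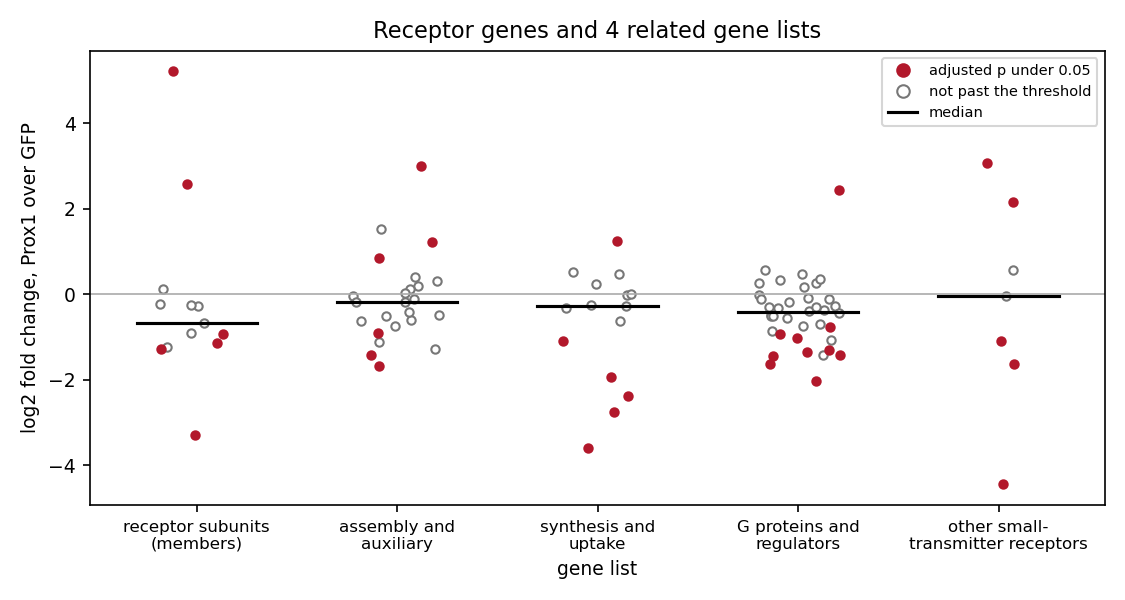
Log2 fold change of Prox1 over GFP for the tested receptor genes and for the tested genes of 4 related lists; filled points passed the limma adjusted threshold and bars are medians. The medians are -0.66, -0.17, -0.28, -0.41 and -0.05 from left to right.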

How the data were processed

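Per the file headers, the authors deposited, for each gene and library, a log2 value, their DESeq p-value with its adjusted p, a log2 fold change, and a length-scaled signal that was used only to check files against each other. The authors used DESeq and mm10, per the submitters' processing notes; which aligner, counting tool, strand setting and annotation were used is not given in the sources used here. Raising 2 to the deposited log2 values and taking off 1 left whole numbers everywhere (100% within a relative tolerance of 1e-06). These are normalised counts rounded by the authors, not reads, so no count model was run. Reads per library were estimated from the gaps in the rounded values. Values of log2(normalised count + 1) were tested with limma 3.58.1 in R 4.3.3 (lmFit, eBayes with trend, two-sided, Benjamini-Hochberg, threshold 0.05) on 13290 genes with a mean of at least 10, after the fit was tested on simulated data. This scale understates the change of low genes, so ratios of mean normalised counts stand beside it for some genes. The called genes Gabrr1, Chrm2, Plcl1, Tph1, Gldc, Plcb1 and P2ry6 averaged under 10 in 1 group and reached the minimum through the other. Where a group summed to 1 to 3 counts, an exact 95% interval treats normalised counts as reads and covers counting error only. Both replicate pairs varied beyond sampling noise (chi-square over its degrees of freedom 21.1 and 22.3). Replicate numbers come from sample titles and do not pair the samples.

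The receptor genes, 4 related lists and marker lists were chosen with earlier results of these data known. Named were receptor genes past the threshold, the 3 with most counts per transmitter, the Gabrr genes, those with at least 10 counts in one group and 3 or fewer in the other, partners of these by family, up to 2 rises and 2 falls per list, and genes that start within 500 kb of Gabrr1. Partners were added after their values were seen. Levels of different genes were not compared, since a length suited to end-of-transcript reads is not given. No protein sequence was used here. Values of some genes that the rule names are not reported here.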

Additional observations from a re-analysis of the deposited data

How the results depend on the processing

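The counts of receptor genes called, 2 higher and 4 lower, were the same with TMM scaling, cyclic loess, pseudocounts of 5 and 0.5, vooma weights and the replicate block. The replicate block raised the calls over all genes from 2124 to 2528; deviations of same-numbered libraries correlated at -0.051, and the samples share only a number. With a mean of at least 50, 1 receptor gene was higher (Chrm2 was no longer tested) and 4 were lower. Without the minimum, limma called 0 genes of 24187 (5032 with an unadjusted p under 0.05), and 0 receptor genes either way (8 higher and 5 lower unadjusted); the cause was not tested. Without the variance trend it called 1057 genes, 2 receptor genes higher and 1 lower, since Gabbr1, Chrna3 and Grik5 no longer passed; the cause was not tested. Leaving out 1 library at a time left 0 genes called in each case (2365 to 2981 with an unadjusted p under 0.05), and 0 receptor genes higher (2 unadjusted in each case) or lower (2 to 5 unadjusted). For receptor genes not called, these fits gave log2 fold changes from -1.0 to 0.44 for Chrm3, from -0.19 to 0.46 for Chrnb2 and from -0.52 to 0.00 for Htr3a, so their directions are not settled; the cause was not tested. Grm5 ran from -1.82 to -0.67 and Grin1 from -1.56 to -0.24. Such fits assume that the lone library of a group varies like the other group's. GFP libraries held 2 and 4 counts of Gabrr1 and 0 and 3 of Chrna1, so depth limits the size of these ratios, and receptor genes under the minimum were not tested.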
